A study of Mus musculus with 6 samples.

Results

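Many of the transcripts on a mouse expression array were known, when the array was designed, only as a sequenced cDNA clone or as a stretch of the genome, with no curated gene model. The members described here are the probes whose systematic name begins with none of NM_, NR_, XM_, XR_ or ENSMUST, the prefixes of RefSeq and Ensembl mouse transcripts. They number 13435 of the 56605 different non-control probes on the array, and each is 60 bases long. The other 43170 probes carry a RefSeq or Ensembl identifier and serve as the comparison.

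The study hybridised 6 one-colour (Cy3) Agilent arrays, 3 with RNA of wild-type (WT) mouse cells and 3 with RNA of cells from NONMMUT002667 knockout (KO) mice. NONMMUT002667 is the database name of a mouse long non-coding RNA. The cells are bone marrow stromal cells, taken from crushed and collagenase-digested femurs, sorted as Sca-1+ CD29+ CD45- CD11b-, and grown to first passage; all 6 samples are labelled male. The titles number the samples as mice of each genotype, without saying how many mice went into a sample, and the labels give no strain or age. Every p-value below reflects only how these 6 samples vary. Some label fields describe irradiated human blood, which the titles, the organism and the probes' mouse design go against, and the titles were followed. No member is named NONMMUT002667, so the deleted transcript was not checked here.

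The 7 kinds of identifier were told apart by their form. The members include 6036 full-length cDNAs of the RIKEN mouse collection (accessions beginning AK), 497 clones of the Mammalian Gene Collection (BC), 1455 other GenBank cDNA or EST accessions, and a small set of consensus sequences assembled from ESTs (TC). A further 4450 are intergenic regions named by their coordinates and by strand (F for forward, R for reverse), which the files describe as lincRNA. Another 509 are NAP entries and 381 have a probe ID only, and both are described as unknown in the files. Long intergenic non-coding RNAs are transcripts that lie between protein-coding genes and carry no long reading frame; some act on neighbouring genes or host microRNAs, and most are made at low levels and in few tissues. A cDNA clone that falls inside a known gene can instead come from an unusual isoform, a retained intron, or an internally primed precursor.

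The probes below carry the findings that follow. They are the sequences that were read on the array, taken from the scanner files, 5′ to 3′, with positions in build mm9. The first 3 are the member called in the knockout comparison and the 2 cDNA or ID-only members with large differences; the next 6 are an EST consensus within Col22a1 and 5 intergenic regions with small p-values.
AK143985: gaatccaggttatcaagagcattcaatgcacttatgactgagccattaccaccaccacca
AK034948: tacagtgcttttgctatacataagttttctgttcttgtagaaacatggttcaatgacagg
A_65_P10413: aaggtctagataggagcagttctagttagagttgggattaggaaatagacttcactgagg
TC1681647: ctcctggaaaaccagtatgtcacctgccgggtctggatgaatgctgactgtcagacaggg
chr1:94608820-94634671_R: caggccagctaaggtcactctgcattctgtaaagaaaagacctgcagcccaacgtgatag
chr5:20459718-20462031_F: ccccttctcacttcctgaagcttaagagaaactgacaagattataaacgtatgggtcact
chr14:65205076-65219432_R: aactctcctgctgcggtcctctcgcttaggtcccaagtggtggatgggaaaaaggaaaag
chr1:139856545-139857204_F: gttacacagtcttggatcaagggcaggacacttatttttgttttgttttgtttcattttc
chr17:27012442-27024356_F: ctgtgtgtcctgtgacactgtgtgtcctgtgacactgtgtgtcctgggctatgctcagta

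A pair of regions is shown with the probes of both strands, because the probes overlap and so read the 2 strands of the same bases. Capitals mark the bases that the probe of the other strand also covers, 36 in the first region and 22 in the second.
chr1:13058312-13099826_F: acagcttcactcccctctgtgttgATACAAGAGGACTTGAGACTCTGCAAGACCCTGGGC
chr1:13058312-13099826_R: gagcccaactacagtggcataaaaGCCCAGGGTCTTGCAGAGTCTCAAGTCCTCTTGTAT
chr4:35106125-35127700_F: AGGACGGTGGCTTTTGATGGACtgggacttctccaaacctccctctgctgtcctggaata
chr4:35106125-35127700_R: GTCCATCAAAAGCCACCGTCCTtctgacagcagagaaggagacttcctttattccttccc

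Levels are log2 processed signals from which the 75th percentile of all non-control spots on that array was subtracted. A spot counts as detected where the scanner software marks it well above background. The number of arrays limits the precision of every value. Detection and level both moved with the group over all probes: detected shares were lower, and the lowest signal counted as detected was higher, on the KO arrays (-4.15, -3.99 and -3.60) than on the WT arrays (-4.41, -4.62 and -4.59). All 6 arrays were on 1 slide scanned on 1 day, the WT arrays in its first row and the KO arrays in its second, so slide row and genotype cannot be told apart. The 4 genes of the sort (Ly6a, Itgb1, Ptprc, Itgam) were detected on all 6 arrays, although the sort selected against CD45 and CD11b, the proteins of Ptprc and Itgam. All 10 macrophage genes were also detected on all 6 arrays, with a summed linear level of 878 to 921 on WT arrays and 941 to 996 on KO arrays; limma called 0 of them at an adjusted p under 0.05, and 1 had an unadjusted p under 0.05. Of 5 adipocyte genes limma called 0 and 3 had an unadjusted p under 0.05 towards higher in KO, with sums of 85.7 to 92.1 on WT arrays and 110 to 141 on KO arrays. The 8 osteoblast genes all had an unadjusted p under 0.05 towards lower in KO, 1 of them called, with a summed linear level of 360 to 398 on WT arrays and 139 to 230 on KO arrays. Their part in the results below was not tested.

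Fewer members than RefSeq or Ensembl spots were detected, and the kinds of identifier differed widely. On the WT arrays 38.8%, 41.1% and 42.0% of member spots were detected, and on the KO arrays 37.6%, 36.7% and 32.7%. The groups did not overlap: the mean was 40.6% ± 1.7 (SD, n = 3) in WT and 35.6% ± 2.6 in KO, a difference of -4.99 percentage points (two-sided exact permutation test over arrays, p = 0.1, the smallest that 3 against 3 allows). RefSeq and Ensembl spots lay at 60.2% ± 1.1 in WT and 56.1% ± 2.0 in KO, a difference of -4.10 points with the same p of 0.1 in the exact permutation test, so the shift was not particular to the members. Intergenic regions had the largest difference among the 7 kinds, from 42.2% ± 2.0 in WT to 35.6% ± 3.0 in KO, and NAP entries the smallest, from 77.4% ± 0.1 to 76.7% ± 0.9. Probe-ID-only members were detected least often, on 20.4% ± 1.7 of spots in WT.

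**Figure D1:**
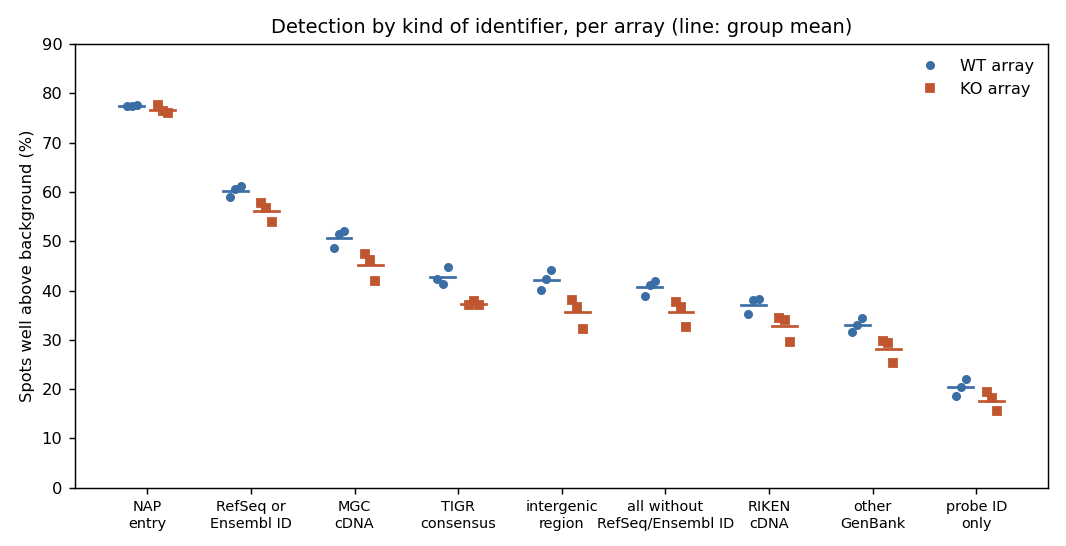
Share of spots well above background (vertical axis, %) for each kind of identifier, with 1 point per array (blue circles WT, orange squares KO) and a line at each group's mean. NAP entries sit highest at 76 to 78% on every array, and the 3 KO arrays lie below the 3 WT arrays for all members together.

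By probe, 3888 of the 13435 members were well above background on all 6 arrays. Another 809 were so on all 3 WT arrays but not on all KO arrays, and 13 were so on all KO arrays but not on all WT arrays. Across the autosomes and X, the share of members tested between KO and WT ran from 27.9% of 412 members on X to 43.8% of 651 on chromosome 17. The 493 members on chromosome 18 are counted but not named.

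The members that were detected were dim. The median level of tested probes was -2.09 for members and -0.22 for RefSeq and Ensembl probes. Among tested members, intergenic regions had a median level of -2.22 and RIKEN cDNAs -2.31, while NAP entries stood at 2.56. These are medians of hybridisation signal over different probes and are not an order of transcript amounts.

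Many of the brightest members shared letters with annotated genes. Of the 30 brightest members, 13 were NAP entries and 7 were BC clones, and 17 of the 30 shared a run of at least 25 identical bases with a RefSeq or Ensembl probe. The BC clones include Rplp1 (BC013252, 8.30 to 8.53 over the 6 arrays) and Fau (BC062873, 7.95 to 8.15), both parts of the ribosome. The probe-ID-only member A_55_P2036380 read 8.04 to 8.27 and shared such a run with Rps20, and NAP093275-001 read 7.93 to 8.06 and shared one with Rps29; both genes encode ribosomal proteins. Among the brightest of their own kinds, the intergenic region chr7:108209996-108216032_R (7.25 to 7.42) also shared a run with the Rps29 probe. The EST consensus TC1726791 (7.12 to 7.27), described in the files as ribosomal protein L29, shared one with Rpl29. AK140265, on the mitochondrial chromosome (598 to 657), read 8.37 to 8.70. WT and KO arrays overlapped in level for each of these except NAP093275-001, whose KO arrays lay above its WT arrays by 0.08 in the mean.

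Sharing went with detection across all members. Of the 194 members with a run of 25 bases in common with a RefSeq or Ensembl probe, 160 (82.5%) were tested, against 34.4% of the rest. The difference had the same direction within each of the 7 kinds of identifier, for example 68.8% against 37.1% for intergenic regions and 87.5% against 15.3% for probe-ID-only members. For a member that shares such a run, signal from the annotated gene and from the member's own transcript cannot be told apart. None of the 13 sequences printed above shares one.

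RIKEN cDNAs are named with the tissue library they were cloned from, and detection in these cells differed between libraries. Of 5887 RIKEN members with a library, 32.6% were detected, meaning well above background on all 3 arrays of a group. Among the 74 libraries with at least 20 members the share ran from 13.5% to 65.4%. The adult testis library had the lowest share, 13.5% of 711 clones. All libraries of testis together had 16.7% of 802, and those of brain, spinal cord and retina 29.1% of 1624.

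Among grouped libraries of blood-forming and immune tissue, those of thymus had 39.5% of 557 clones detected, spleen libraries 45.1% of 142 and dendritic cell libraries 48.9% of 133. The adult bone library had 42.4% of 33, and bone marrow macrophage 6 of 15. Single libraries of 1 tissue varied as well: neonate thymus libraries ran from 32.4% of 145 clones to 49.1% of 57, and visual cortex, the library with the highest share, had 65.4% of 26. The whole 8-day embryo library reached 64.9% of 57. The clone's predicted product also went with detection: 27.7% of 3182 clones called unclassifiable were detected, 34.0% of 1226 with a hypothetical product, and 42.7% of 1628 with another product. These shares count probes of 1 array design, and probes are not replicates.

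**Figure D2:**
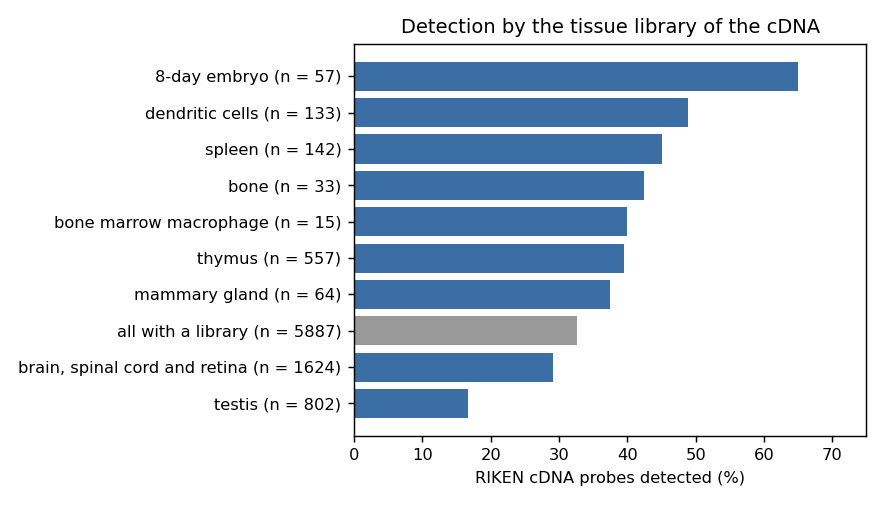
Share of RIKEN cDNA probes detected (horizontal axis, %) by the tissue of the library the clone came from, with the number of clones in brackets and the share over all libraries in grey. Testis lies lowest at 16.7% and the 8-day embryo highest at 64.9%.

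Strand was compared with the annotation where a gene is named. Of 22581 probes with an NM_ identifier and a gene strand in RefSeq (GRCm38.p6), 99.5% lay on the gene's strand. Among RIKEN members that carry a gene symbol, 2120 lay on that gene's strand and 128 on the opposite one. The share detected was 38.9% of the sense and 27.3% of the antisense clones. Of the 35 antisense clones tested between KO and WT, 4 had an unadjusted p under 0.05 towards higher and 1 towards lower, where 8.24% and 7.28% of all tested probes did.

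The intergenic members come from 3229 regions named with a strand, of which 832 are on the array under both strands. Both strands were detected for 185 of these 832, the forward strand only for 177, the reverse strand only for 209, and neither for 261. In 221 pairs the 2 probes overlap by at least 20 bases. One strand only was detected in 92 of these pairs, both in 29 and neither in 100. The first pair printed above shows this: in chr1:13058312-13099826 the forward probe (1, 13084239 to 13084298) read -1.09, -1.06 and -1.16 on the WT arrays, while the reverse probe, 36 bases of which are its complement, read -6.52, -6.76 and -6.69 and was detected on no array.

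The knockout comparison asks which transcripts depend on the deleted RNA. Of 4710 members tested (limma, Benjamini-Hochberg adjustment over all 28607 tested probes), 1 passed an adjusted p of 0.05. Over all tested probes 17 passed, or 0.0594%. Since a probe had to be well above background on every array of a group to be tested, the members that failed that filter are not described by these counts.

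AK143985, the member that passed, rose in KO. Its probe lies on chromosome 9 (44734519 to 44734578, reverse strand), carries the gene name Ube4a, a ubiquitin ligase that extends ubiquitin chains, and lies between 2 tested probes of Ube4a on the same strand; whether it is exonic or intronic is not given in the files. The 3 WT arrays read -3.93, -3.95 and -4.07 and the 3 KO arrays -2.85, -2.44 and -2.77. All KO arrays lay above all WT arrays, by 2.45-fold in the mean (log2 difference 1.30, SE 0.12; limma adjusted p = 0.0496). The NM_145400 probe, 3.26 kb away, stood at 1.19 in WT and 0.91 in KO (difference -0.28, SE 0.17), and the ENSMUST00000145657 probe at -3.54 and -3.50. Its adjusted p ran from 0.0309 to 0.172 over the alternative settings. Without WT replicate 1, 2 or 3 or KO replicate 1 or 3 the adjusted p was 0.0531 to 0.117, with a difference of 1.25 to 1.38.

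At an unadjusted p under 0.05 more members were higher than lower in KO. Of the 4710, 582 were higher (12.4%), against 8.24% of all tested probes, and 277 were lower (5.88%), against 7.28% of all. Groups did not overlap for 791 members with such a p (16.8%), against 14.3% of all tested probes. The median difference was 0.05 for members and 0.02 for all tested probes. By kind, RIKEN cDNAs had a median of 0.12, with 356 of 1994 higher and 92 lower, while intergenic regions had a median of 0.00, with 120 of 1655 higher and 140 lower. Of the other kinds, 31 of 218 BC clones were higher and 7 lower, and 19 of 335 NAP entries were higher and 3 lower. A direction for the intergenic regions as a whole was not given by these data, since their median changed sign between settings. None of these class differences was tested.

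The base composition of the probe moved with the difference. Members with 30% G and C bases or less had a median difference of 0.16 (64 probes), those with 40 to 45% had 0.05 (1733 probes), and those above 60% had -0.05 (138 probes). RefSeq and Ensembl probes ran the same way over a smaller range, from 0.04 to -0.05. RIKEN members are poorer in G and C than the rest, with a median of 38.3% over all of them against 43.3% for RefSeq and Ensembl probes. Within the 40 to 45% bin RIKEN members had a median of 0.10 (687 probes) and intergenic regions 0.01 (621 probes). In the 45 to 50% bin the RIKEN median was 0.03, and in the 3 bins above 50% it was -0.05, -0.01 and -0.01. When each array was centred within bins of G and C content, a setting added after the data were seen, the RIKEN median was 0.11 and 604 members were higher and 282 lower.

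**Figure D3:**
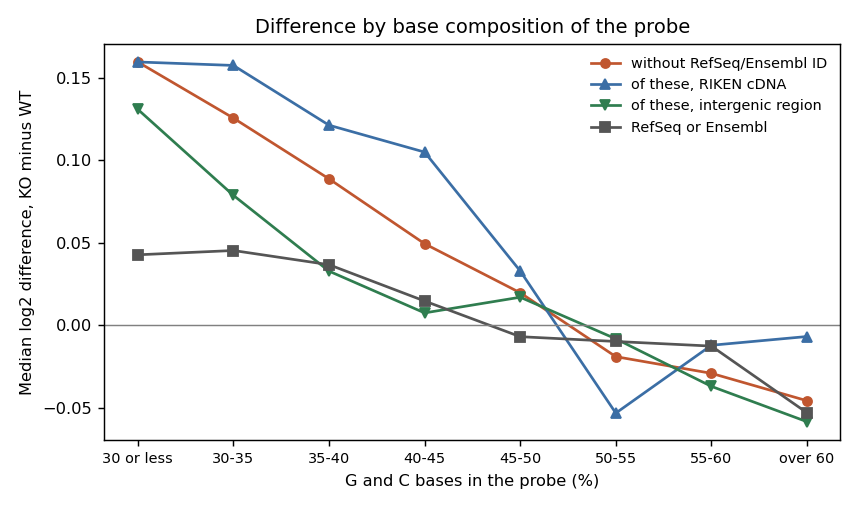
Median log2 difference, KO minus WT (vertical axis), of tested probes in bins of the percentage of G and C bases in the probe (horizontal axis), for members, the RIKEN and intergenic members among them, and RefSeq or Ensembl probes. Members run from 0.16 in the bin with least G and C to -0.05 in the bin with most.

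Level moved with it less regularly. Tested probes were divided by level into 5 bins of equal size. In the dimmest bin the members' median difference was 0.03 (1621 probes), in the middle bin 0.10 (796 probes) and in the brightest 0.03 (479 probes). The RefSeq and Ensembl medians in these bins were -0.01, 0.02 and 0.03, and the members' median lay above theirs in all 5 bins.

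Several members missed the threshold narrowly with large differences; their values are given without a call. A member that was above background in 1 group only passed the filter through that group, so its p-value rests in part on background signal and supports nothing by itself. AK034948 is a RIKEN cDNA with the gene name Slc25a37, the mitochondrial iron importer mitoferrin-1 of developing red cells (chromosome 14, 70080666 to 70080725). It read -2.60, -2.61 and -1.42 in WT and -6.34, -5.40 and -5.84 in KO, and no KO array was well above background. It was at least 3.26-fold lower in KO, where the bound sets each KO array at its lowest detected signal or its own value, whichever is higher (limma adjusted p = 0.0503, from 0.0235 to 0.172 over the settings). The 3 NM_026331 probes of Slc25a37 lie well away from it, between 69860020 and 69902856. Of these, 1 went from -1.35 in WT to -3.07 in KO (difference -1.72, SE 0.23; limma adjusted p = 0.0593), and the others differed by 0.13 and -0.12. The nearest tested gene probe to AK034948 is of Loxl2, 9.35 kb away on the other strand, at -0.07. A further Loxl2 probe, farther away, differed by -0.42 (SE 0.15).

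The ID-only member A_65_P10413 was detected on KO arrays only. It lies on chromosome 5 (110760810 to 110760869), 5.57 kb from a probe of Pole, the catalytic subunit of DNA polymerase epsilon, on the same strand. WT arrays read -6.46, -5.65 and -6.35, none above background, and KO arrays -2.15, -3.61 and -2.52. The KO mean exceeded the WT bound at least 3.44-fold (limma adjusted p = 0.0565), while the NM_011132 probe of Pole differed by 0.24 (SE 0.10).

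Other members with WT arrays below background were AK076446 (Tmem175, a lysosomal potassium channel), which was higher in KO at least 1.69-fold (limma adjusted p = 0.0723), and chr13:51248372-51259297_F, at least 3.09-fold higher (limma adjusted p = 0.0948). The NM_028223 probe of Tmem175 differed by -0.03. The region chr17:27012442-27024356_F was detected on every array, at -3.82, -3.62 and -3.63 in WT and -2.34, -2.60 and -1.91 in KO (difference 1.41, SE 0.18; limma adjusted p = 0.0593). Its probe, printed above, is largely a repeated short stretch, and whether the signal comes from this region alone was not tested. A reverse-strand region with overlapping coordinates went the other way, at -0.69 with a variance trend (limma adjusted p = 0.0497 in that setting). AK089867, a cDNA named Ermard, read -1.48, -1.42 and -1.53 in WT and -0.95, -0.82 and -0.77 in KO (difference 0.63, SE 0.08; limma adjusted p = 0.0593). For chr17:27012442-27024356_F and AK089867 the KO arrays lay above the WT arrays, and the tested RefSeq probes of Ermard differed by 0.36, -0.01 and 0.01. The further members AK035671, AK042305 and BB430852 were higher by 1.14 to 1.46 with adjusted limma p-values from 0.125 to 0.262.

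**Figure D4:**
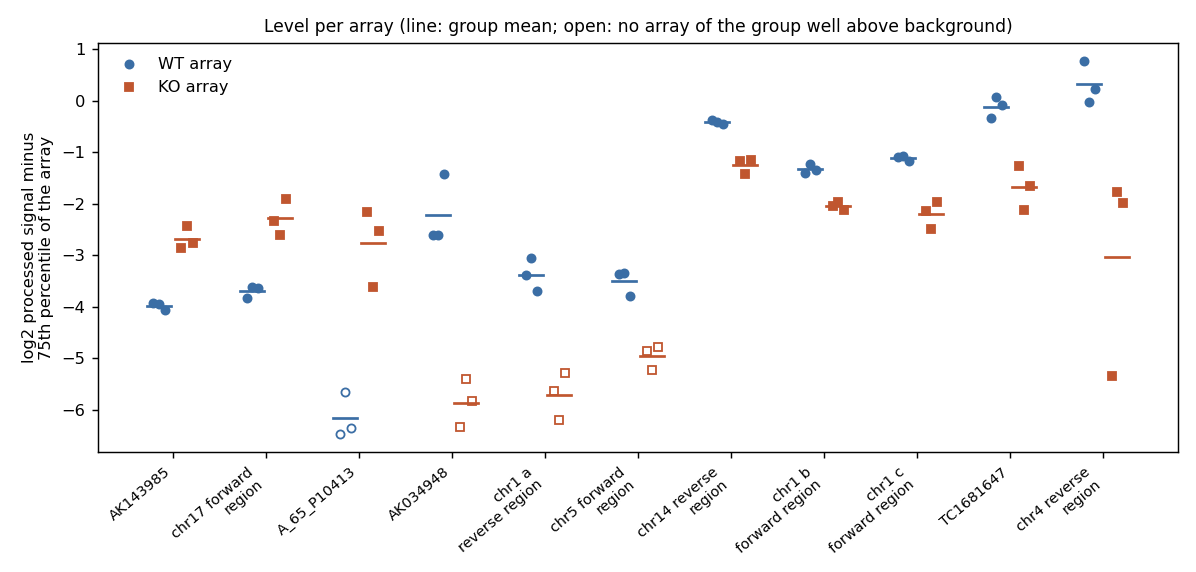
Level of 11 members on each array (vertical axis, scaled log2 level; blue circles WT, orange squares KO; line, group mean; open symbols, no array of that group well above background). The chromosome 1 regions a, b and c are those that start at 94608820, 139856545 and 13058312; most were chosen for groups that do not overlap or for a small p, so the gaps between groups restate that choice.

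On the lower side, intergenic regions were most of the members with the smallest p-values; these were listed after their values were seen. The region chr1:94608820-94634671_R read -3.37, -3.06 and -3.70 in WT and -5.64, -6.21 and -5.29 in KO. No KO array was above background, and it was at least 1.45-fold lower there (limma adjusted p = 0.0534). The region chr5:20459718-20462031_F, at -3.37, -3.34 and -3.79 in WT, was likewise detected on no KO array and at least 1.33-fold lower (limma adjusted p = 0.0565). The nearest tested gene probe to the first region, of Otos at 69.9 kb, was detected on no KO array, and no difference could be bounded for it. That to the second, of Ptpn12 at 32.8 kb, differed by -0.01.

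A pair of lower regions was well measured on every array. The region chr14:65205076-65219432_R read -0.37, -0.42 and -0.44 in WT and -1.16, -1.42 and -1.14 in KO (difference -0.83, SE 0.10; limma adjusted p = 0.0565). The forward strand of chr1:13058312-13099826, whose reverse probe was silent, read -2.15, -2.49 and -1.97 in KO against the WT values above (difference -1.10, SE 0.14; limma adjusted p = 0.0593). Each KO array lay below each WT array in both. The nearest tested gene probe to the second region, of Prdm14 at 20.2 kb, differed by 0.28.

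For 2 members 1 KO array set the size of the difference. The reverse strand of chr4:35106125-35127700 read 0.77, -0.02 and 0.23 in WT and -5.34, -1.76 and -1.98 in KO. Its difference of -3.35 became -2.20 without KO replicate 1 (limma adjusted p = 0.171 and 0.057). The forward probe of the same region, which shares 22 bases with it, was detected on all arrays and differed by 0.16. AK021392 (E130116L18Rik) had the same shape, with -0.12, -0.55 and -0.47 in WT and -5.89, -2.32 and -2.51 in KO. Its difference of -3.20 (limma adjusted p = 0.182) became -2.03 without KO replicate 1, where limma's adjusted p was 0.0303.

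Some lower members ran with their gene and others did not. AK199574, named Klhl30, read -1.41, -1.18 and -0.94 in WT and -2.48, -3.71 and -2.46 in KO (difference -1.70, SE 0.34), and the NM_027551 probe 0.19 kb away differed by -1.57 (SE 0.32; limma adjusted p = 0.101 and 0.104). AK042931, named Tmed5, a cargo receptor of the secretory pathway, has 2 probes: 1 was at least 2.33-fold lower and detected on no KO array, the other differed by -0.18. The NM_028876 probe of Tmed5 differed by 0.23. AK032075 and AK082589 were also detected on no KO array, at least 2.86-fold and 1.41-fold lower with adjusted limma p-values of 0.238 and 0.245.

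Over all members the difference followed the annotated gene loosely. Of the 1155 tested members that share a gene name with a tested RefSeq or Ensembl probe, 61% had the sign of those probes' mean difference (r = 0.36 across members, which share arrays and are not independent). Of the 254 with an unadjusted p under 0.05, 78 had a gene probe with such a p the same way, 11 had one the other way, and 165 had none.

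Neighbouring probes of any name followed each other less with distance and strand. Across the 1156 members within 5 kb of their nearest tested gene probe, r was 0.23 and 60.4% had the same sign. At 5 to 50 kb r was 0.13 (2210 members, 57.6%) and beyond 50 kb 0.13 (1272 members, 53.5%). Within 5 kb, members on the same strand and with the same gene name had r = 0.47 (440 members), those on the same strand with another name 0.18 (375 members), and those on the opposite strand with another name -0.07 (322 members). For the 290 intergenic members within 5 kb r was 0.02. All these correlations are across probes of the same 6 arrays and describe them only.

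Of 23 tested members within 250 kb of a called gene, 3 were higher and 4 lower at an unadjusted p under 0.05 (all tested probes, 8.24% and 7.28%). The 4 lower include AK050857, which was detected on no KO array. Within 250 kb of Fmod, the gene of fibromodulin, a proteoglycan that binds collagen fibrils, lie 7 members, of which 3 were tested, at differences from -0.06 to 0.09, while the Fmod probe differed by -2.43. Near Ibsp, encoding bone sialoprotein, 1 of 3 was tested, at 0.07, and near Kcnf1 3 of 5 lay between -0.09 and 0.03. Near Sgca and Krtap13-1 no member was tested. The 3 higher members were BC054111 near Wdfy1 (0.40, SE 0.11), AK047948 near Chrna1 (0.44, SE 0.11) and AK138827 near Smim5 (0.30, SE 0.12). BC054111 carries the gene name Ap1s3, whose tested NM_183027 probe, 0.28 kb away on the same strand, differed by 0.43 (SE 0.10). The tested Wdfy1 probes disagreed: the called probe was higher by 0.83 and another by 0.82, while the NM_027057 probe differed by -0.60 (SE 0.13). For Chrna1 and Smim5 the called probe was detected in WT only, and its decrease is bounded at 1.17-fold and 1.12-fold.

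Around Col22a1, Lifr and Phospho1, all lower in KO, some members were lower and others were not. TC1681647, the EST consensus that lies between the probes of Col22a1 on the same strand (chromosome 15, 71699345 to 71699404), read -0.34, 0.07 and -0.07 in WT and -1.27, -2.11 and -1.65 in KO (difference -1.56, SE 0.22; limma adjusted p = 0.0657). Of the Col22a1 probes, of a collagen of tissue junctions, the brighter was detected on every array and differed by -2.08. The other, which was called, was detected in WT only, and its decrease is bounded at 1.42-fold. AK047630 (Gm10050), 57.8 kb from a Lifr probe on the other strand, read -2.04, -2.10 and -2.22 in WT and -3.02, -2.70 and -3.16 in KO (difference -0.84, SE 0.13; limma adjusted p = 0.0723), and the 3 probes of Lifr, the receptor of leukaemia inhibitory factor, differed by -0.76 to -1.06. The other tested members near Lifr differed by -0.13 and 0.15. The called probe of Phospho1, a phosphatase of mineralising matrix, was likewise detected in WT only, with a decrease bounded at 1.51-fold. Within 250 kb of Phospho1, 5 of 11 members were tested. There the forward strand of chr11:95644899-95658549 read 0.19, 0.18 and 0.33 in WT and -0.71, -1.22 and -0.42 in KO (difference -1.02, SE 0.20; limma adjusted p = 0.0945), and the overlapping reverse probe differed by 0.05, while a further reverse probe was detected on no array. Of the other tested members there, chr11:95573399-95587949_F differed by 0.64 and chr11:95627874-95640824_R by 0.02. AK050857 was detected on no KO array, and no difference could be bounded for it. The osteoblast genes were lower on the same arrays, as given above.

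Some neighbouring members differed in 1 direction as a run. Tested members were joined where the next lay within 50 kb, a grouping made after the values were seen. It gave 288 runs with at least 3 tested members, and in 7 of them at least 3 had an unadjusted p under 0.05 in 1 direction. Over all tested probes 8.24% had such a p towards higher and 7.28% towards lower. No count of such runs among RefSeq or Ensembl probes is given for comparison. The 7 runs were picked by these p-values, so the counts within them restate that choice. No member of these runs passed the adjusted threshold.

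The longest run towards lower lay on chromosome 1 from 139796194 to 139866427. All 7 of its tested members were lower in KO, 6 of them with an unadjusted p under 0.05. They are 5 forward-strand regions, 1 reverse-strand region and the forward cDNA AK053260 (A430106G13Rik). The region chr1:139856545-139857204_F, printed above, read -1.40, -1.23 and -1.35 in WT and -2.04, -1.97 and -2.13 in KO (difference -0.72, SE 0.08; limma adjusted p = 0.0565). The brightest, chr1:139822286-139822985_F, read 0.73, 1.14 and 0.78 in WT and 0.44, 0.44 and 0.39 in KO (difference -0.46, SE 0.12), and AK053260 differed by -0.45 (SE 0.14). The 1 reverse-strand region, chr1:139713316-139913366_R, differed by -0.11 (SE 0.08), without an unadjusted p under 0.05. Next to the run lies the probe of the non-coding gene Gm34353, detected on no array, which RefSeq (GRCm38.p6) places between Mir181b-1 and Ptprc, with Mir181a-1 beyond Mir181b-1. These microRNAs of the miR-181 family are known for their part in lymphocyte development. The Ptprc probe, 103 kb from chr1:139856545-139857204_F, differed by 0.20.

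A run towards higher lay around Ifi204, an interferon-induced DNA sensor, on chromosome 1 from 175655046 to 175711114. Of its 9 tested members 8 were higher in KO, 4 with an unadjusted p under 0.05 (all tested probes, 8.24% towards higher). These 4 are probes of chr1:175654606-175672031_R and of chr1:175660642-175671878_R, which lies within it on the same strand. Whether they read separate transcripts was not tested. The region chr1:175660642-175671878_R has 2 probes, of which 1 read -0.68, -0.80 and -0.51 in WT and -0.20, -0.08 and 0.01 in KO (difference 0.57, SE 0.10; limma adjusted p = 0.0871) and the other differed by 0.34 (SE 0.10). The cDNA BC010546 of Ifi204 itself differed by 0.13 and the NM_008329 probe by 0.17. The 1 forward-strand probe of the run differed by -0.11.

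**Figure D5:**
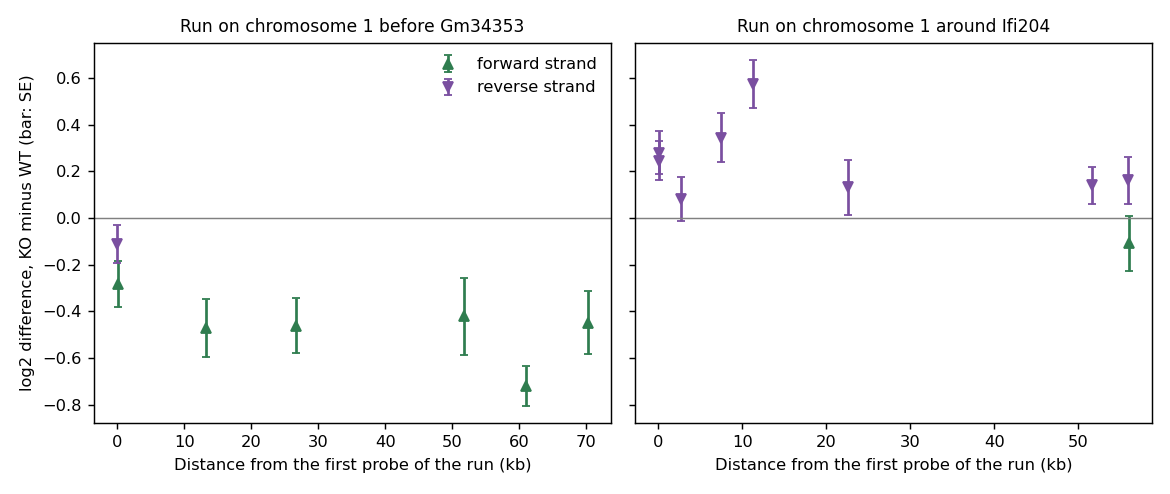
Log2 difference, KO minus WT, with its SE (vertical axis) of the tested members of 2 runs, against the distance from the run's first probe in kb (horizontal axis), with upward triangles for the forward and downward triangles for the reverse strand. All 7 members of the left run lie below 0, and 8 of 9 in the right run lie above it.

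Probes of the same region were compared to see how far they follow each other. In 84 regions with at least 2 tested probes of the same strand, the probes had the same sign in 57.1%, and the median gap between them was 0.12. In 3 of the 84 all tested probes had an unadjusted p under 0.05 in 1 direction: chr5:115806200-115834425_F, lower, and chr14:62263564-62308286_R and chr1:175660642-175671878_R, higher. Where both strands of a region were tested, their differences shared a sign in 50.8% of 185 regions (r = -0.03 across regions).

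A fixed list of well-known long non-coding RNAs was represented by few detected members. Of its 40 names 17 are among the members, with 22 probes, and 6 probes of 5 RNAs were tested: 3 had an unadjusted p under 0.05 towards higher and 0 towards lower (all tested probes, 8.24% and 7.28%), and limma called none after adjustment. Dleu2, a host of miR-15a and miR-16-1, had 2 tested cDNAs. AK029956 read -2.89, -2.91 and -2.75 in WT and -2.51, -2.13 and -2.52 in KO (difference 0.46, SE 0.13), and AK033078 differed by 0.60 (SE 0.24). The NR_028264 probe of Dleu2 differed by -0.48 (SE 0.20), and limma's adjusted p was 0.173, 0.313 and 0.325 for these 3. Snhg5, a host of small nucleolar RNAs, differed by 0.32 (BU509931, SE 0.09) against -0.01 for its NR_040721 probe.

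Meg3, the maternally expressed imprinted RNA, read -2.16, -2.15 and -2.45 in WT and -2.26, -1.48 and -1.48 in KO (AK157178, difference 0.51, SE 0.23), with overlapping groups. Its tested NR_027652 probe differed by 0.79 (SE 0.24). Airn, the imprinted RNA antisense to Igf2r, read 1.03, 1.41 and 1.58 in WT and 1.70, 1.72 and 1.57 in KO (AK032756, difference 0.32, SE 0.15), and its tested NR_027784 probe differed by 0.14 (SE 0.08). Snhg7 (BC046478) differed by -0.04 and its NR_024068 probe by 0.19 (SE 0.11). The member probes of H19, Tsix, Pvt1, Rian and Mirg were detected on no array.

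Segments of antigen receptors were mostly below background. Of 14 immunoglobulin members 2 were tested, and of 20 T cell receptor members 3, and limma called none. An unadjusted p under 0.05 was found for 1 in each list, towards higher for Ighg3 and towards lower for Trav14d-3-dv8. Over all tested probes 8.24% and 7.28% had such a p towards higher and lower. Ighg3 (AK131185) read -3.87, -4.02 and -3.70 in WT and -3.15, -3.63 and -2.51 in KO (difference 0.77, SE 0.27; limma adjusted p = 0.256). Trav14d-3-dv8 (AK041780) read -4.06, -4.35 and -4.53 in WT and was detected on no KO array. Its WT mean lay below the KO arrays' floors, so no difference could be bounded. Its p rests in part on background signal and supports nothing by itself. Among B cell genes Cd79b was detected on all 6 arrays and Cd79a on none. Of 4 T cell genes Cd3e and Cd4 were detected on all 6 and Cd3g and Cd8a on none. Their part in these values was not tested.

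One member on chromosome Y set 2 arrays apart. BX528370 (357543 to 357602) read -0.92 and -0.84 on WT replicates 1 and 2 and -1.05 and -1.26 on KO replicates 2 and 3, but -6.90 on WT replicate 3 and -6.45 on KO replicate 1. Those are the 2 arrays on which Xist, the RNA of the inactive X chromosome, was detected, which goes against their label of male. The other 2 detected Y members did not separate them: AA522020 read 3.13 to 3.42 on all 6 arrays, and CK377509 read -4.27 to -3.25. Without the 2 arrays 451 members were higher and 227 lower at an unadjusted p under 0.05, and 7 were called; AK143985 then had a difference of 1.34 and a limma adjusted p of 0.116.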

How the data were processed

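RNA of 3 WT and 3 KO samples was read on 6 one-colour arrays. The intensity values are the scanner software's processed, mean and background signals, per the file headers, which name Agilent Feature Extraction 10.7.1.1; the submitters' processing notes name version 9.1. The deposited series table holds log2 values whose columns share the same sorted values; the authors' steps behind it are not stated in the sources used. Positions are in mm9, per the file headers.

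Each array was scaled by subtracting the 75th percentile of log2 processed signal over 59305 non-control spots. Spots marked as outliers were left out and the spots of a probe averaged. A probe was tested with at least 2 values per group and at least 0.5 of its spots well above background on every array of a group. limma 3.58.1 (R 4.3.3; lmFit, eBayes, group only) was used, with Benjamini-Hochberg adjustment over all 28607 tested probes and a threshold of 0.05. The steps were tested on simulated data. A bound ("at least") sets the dim group at the lowest detected signal of each array or the probe's own, whichever is higher.

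The members, lists and tests were chosen with earlier results of these data known. Members were named by rule: called; the 8 largest differences per direction among those with an unadjusted p under 0.05 and groups that do not overlap; within 250 kb of a called gene; the 3 brightest per kind; on chromosome Y and detected; on a fixed list; or regions with at least 2 concordant probes. The smallest p-values and the runs of neighbours were added after the values were seen.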

Additional observations from a re-analysis of the deposited data

How the results depend on the processing

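The count of called members depended on the setting, while the larger number of higher than lower members at an unadjusted p under 0.05 held in every setting with a detection filter. Called members, beside the calls over all tested probes, numbered 2 of 24 with median centring, 30 of 215 with normexp and quantile normalization, 28 of 220 with a variance trend, 3 of 28 with centring in G and C bins (added after seeing the data), 7 of 24 without WT replicate 3 and KO replicate 1, 0 of 18 in the deposited series table (limma; 546 members higher and 295 lower at an unadjusted p under 0.05), and 0 of 0 without a filter on dim probes (limma; 4810 higher and 360 lower). Leaving out 1 array in turn gave 1 of 2, 3 of 4 and 7 of 31 without WT replicate 1, 2 and 3. It gave 5 of 22, 4 of 20 and 6 of 20 without KO replicate 1, 2 and 3. Without the filter the median difference was 0.27 for members and 0.13 for all probes. Most members in that setting had failed the filter, and scaled background was higher on KO arrays. Cd3g, for example, was detected on no array and read -6.75 in WT and -6.18 in KO. The counts without the filter therefore say nothing about the direction of transcripts. With the replicate number as a block limma called 0 members and 0 of all tested probes (668 members higher, 310 lower at an unadjusted p under 0.05). After the group means were subtracted, same-numbered samples correlated at 0.06, 0.15 and -0.03. Same-numbered WT and KO arrays also lay in the same column of the slide. With so few samples these correlations do not settle whether the samples are paired. The log2 difference of BC039973 changed sign, from 0.14 to -0.0037 with normexp and quantile normalization (limma adjusted p = 0.985 there). The intergenic median ran from -0.04 to 0.17. The difference in detected share was -4.26 points when spots significantly above background were counted, and -5.96 to -3.50 points leaving out 1 array. A slide or scan-date block was not run, since all arrays shared 1 slide and 1 day. Dim signal limits most members, which lie near the floor of detection.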

Other observations

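The 5 other runs of neighbouring members were as follows, all chosen after their values were seen and none with a called member. On chromosome 19 (10134543 to 10138208) 3 of 3 tested cDNAs of the fatty acid desaturases Fads3 and Fads2 were lower in KO, AK162624 by 0.41, AK215784 by 0.83 and AK192544 by 0.48 on the log2 scale, and the NM_021890 probe of Fads3 differed by -0.43. On chromosome 7 (147143504 to 147181189) 3 of 4 members around Adam8, a membrane metalloprotease, were higher by 0.50 to 0.70, and the NM_007403 probes of Adam8 differed by 0.31 and 0.41. Of these members, AK164921 carries the gene name 6430531B16Rik, whose tested NM_001033465 probe differed by 0.06. The tested gene probe nearest to the member BX529624, NM_133755 of Tubgcp2, differed by -0.01. On chromosome 11 (104216881 to 104329013), around Mapt and Kansl1, 6 of 6 were higher, by 0.05 to 0.43. On chromosome 7 (111530612 to 111579199), around the Trim30 genes, 3 of 6 were higher and the range was -0.23 to 0.44. On chromosome 14 (62237277 to 62295040), around Dleu2, 5 of 8 were higher and the range was -0.22 to 0.60.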
